A study of Mus musculus with 4 samples.

Results

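The genes described here are 38 genes of the Fanconi anaemia pathway, double-strand break repair and DNA damage signalling, listed by name for their known roles. Probes for 37 of them were found among the 20284 named genes of the array, and no probe was matched to Rad51c. RNA came from 4 fractions sorted from bone marrow. All came from C57BL6 mice, female and 8 weeks old, and the labels name no agent or mutation. Each fraction was hybridised to 1 Agilent array in 1 colour. The long-term stem cell fraction (LT-HSC) held CD34-ckit+Sca1+Lineage- cells, and the short-term fraction (ST-HSC) held CD34+ckit+Sca1+Lineage- cells. Progenitors were ckit+Lineage- cells by their sample label, but the sorting text common to the samples adds Sca1- and also lineage-positive cells, so their exact gate is uncertain. The differentiated fraction was Lineage+ (Lin+), a mixture of mature and maturing blood cells. The labels do not say how many mice gave each fraction.

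Cells copy their genome in S phase and meet crosslinks and breaks that must be repaired before they divide. In the Fanconi pathway a core complex of proteins attaches ubiquitin to the Fancd2 and Fanci pair at a crosslink, and nucleases and recombination then clear the lesion. Breaks are rejoined either by homologous recombination, which copies the sister chromatid with the help of Brca1 and Brca2, or by end joining, which ligates the ends directly and also completes V(D)J recombination in lymphocytes. The pathway is well known in blood because loss of Fanconi genes causes bone marrow failure.

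All values are log2 signals relative to the 75th percentile of the array, which lay at 137 to 230 intensity units. A difference is between 2 such values, and a gene counts as called when the difference reaches 2-fold with at least 1 array well above background. No fraction was replicated, so differences come without p-values. The ± values are the error of a spot as computed by the scanner software, about 0.20 for a difference, and leave out the spread between mice. In sorted bulk RNA, fewer cells expressing a gene and less RNA per cell cannot be told apart. The sorting genes were measured as Cd34 at 7.34, 8.53, 7.51 and 3.26 and Kit at 5.63, 5.004, 4.42 and 1.67 in LT-HSC, ST-HSC, progenitors and Lin+ cells. Cd34 RNA was thus present in the fraction sorted as CD34-. The sorting gene Ly6a, which encodes Sca-1, gave 4.52, 3.12, 2.28 and 4.51 in the same order. Ly6a was thus level in Lin+ cells and LT-HSC, and lower in ST-HSC than in LT-HSC although both were sorted as Sca1+. B cell, neutrophil and erythroid markers were all well above background in Lin+ cells (7 of 7, 5 of 5 and 6 of 6 listed genes).

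Of the 37 repair genes, 32 were well above background on all 4 arrays, 4 on 1 to 3 arrays and 1, Brca1, on none. Brca1 signal was 6.23, 13.4, 10.6 and 18.2 intensity units from LT-HSC to Lin+ cells with spot errors of 6.25, 5.28, 4.67 and 5.33, so its level was not resolved in any fraction. Its probe was the single probe matched to the gene. Among the 32 genes, the highest level lay in LT-HSC for 4, ST-HSC for 12, progenitors for 11 and Lin+ cells for 5. Over all 10615 genes well above background on all arrays, the shares highest in those fractions were 21.5%, 15.9%, 40.8% and 21.8%. These shares followed the scaling: on spike-in controls 23 of the 32 repair genes and 43.8% of all genes were highest in ST-HSC.

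**Figure D1:**
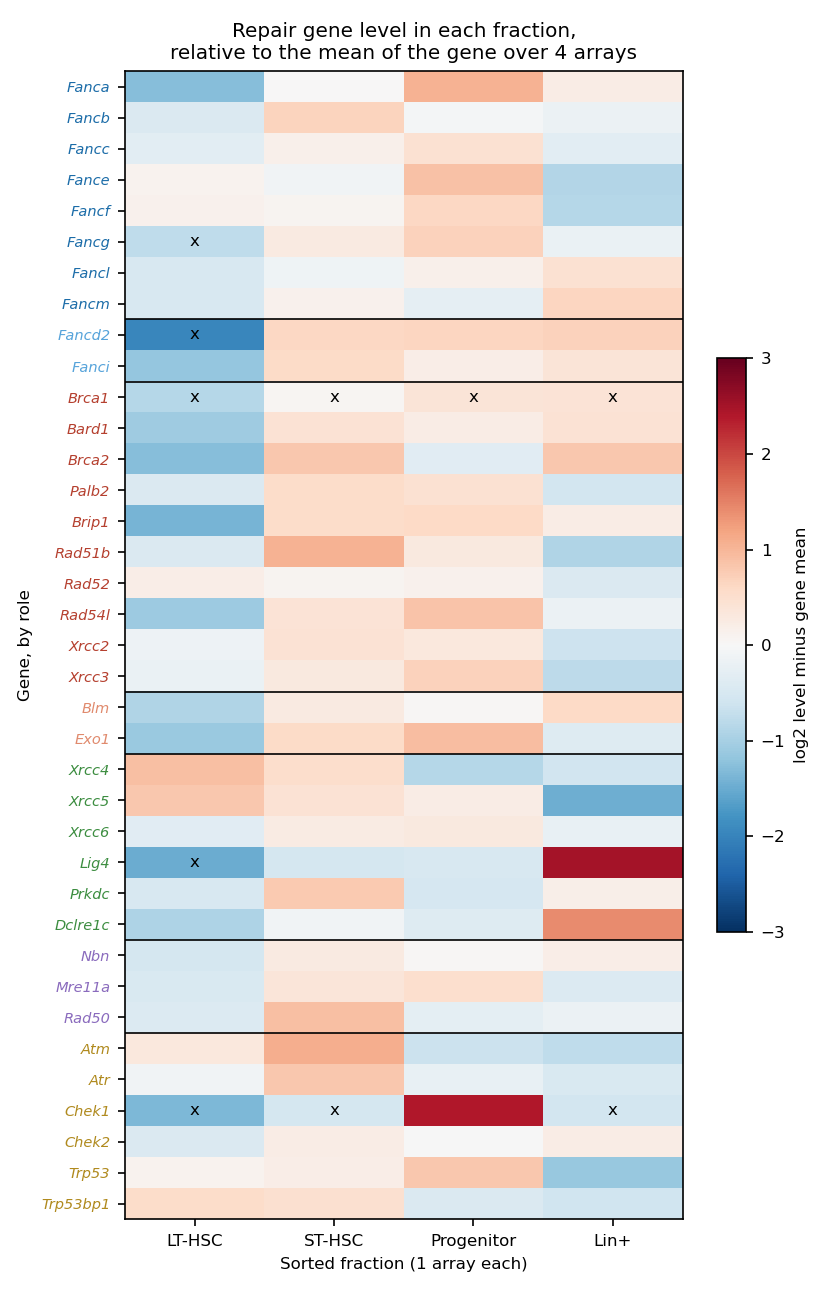
The heat map shows the level of 37 repair genes (rows, grouped and coloured by role) in the 4 fractions (columns, 1 array each) as log2 signal minus the mean of that gene over the arrays; an x marks a signal not well above background. Lig4 and Dclre1c are highest in Lin+ cells, Chek1 is well above background only in progenitors, and Fancd2, Fanci, Brca2 and Brip1 are lowest in LT-HSC.

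ST-HSC differ from LT-HSC in the sort by CD34. In ST-HSC most recombination genes and the Fancd2 and Fanci pair were higher by 2-fold or more, and no repair gene was 2-fold lower. Palb2, Xrcc2, Xrcc3 and Rad52 were the recombination genes compared that were not called. Of 35 repair genes compared, 13 were at least 2-fold higher against 5.81% of 12617 genes, and 0 were at least 2-fold lower against 9.00%. The median over the repair genes was 0.79, beside 0.024 over all genes compared. By role, 7 of 11 recombination and resection genes, 4 of 10 Fanconi genes, 1 of 6 end joining genes and 1 of 8 sensor and signalling genes were called. Genes of dividing cells were higher in the same comparison, 9 of 10 mitosis genes with a median of 2.10 and 8 of 14 S phase genes with a median of 1.07. Cell type markers differed as well, with 5 of 5 granulocyte-monocyte progenitor markers higher (median 3.15), 4 of 4 megakaryocyte markers lower (median -2.68) and 4 of 6 long-term stem cell markers lower (median -1.94). The part of cell division or of these cell types in the repair gene differences was not tested. With normexp background correction 10 of the 13 calls were kept, and Fancb, Fancd2 and Prkdc no longer reached 2-fold.

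**Figure D2:**
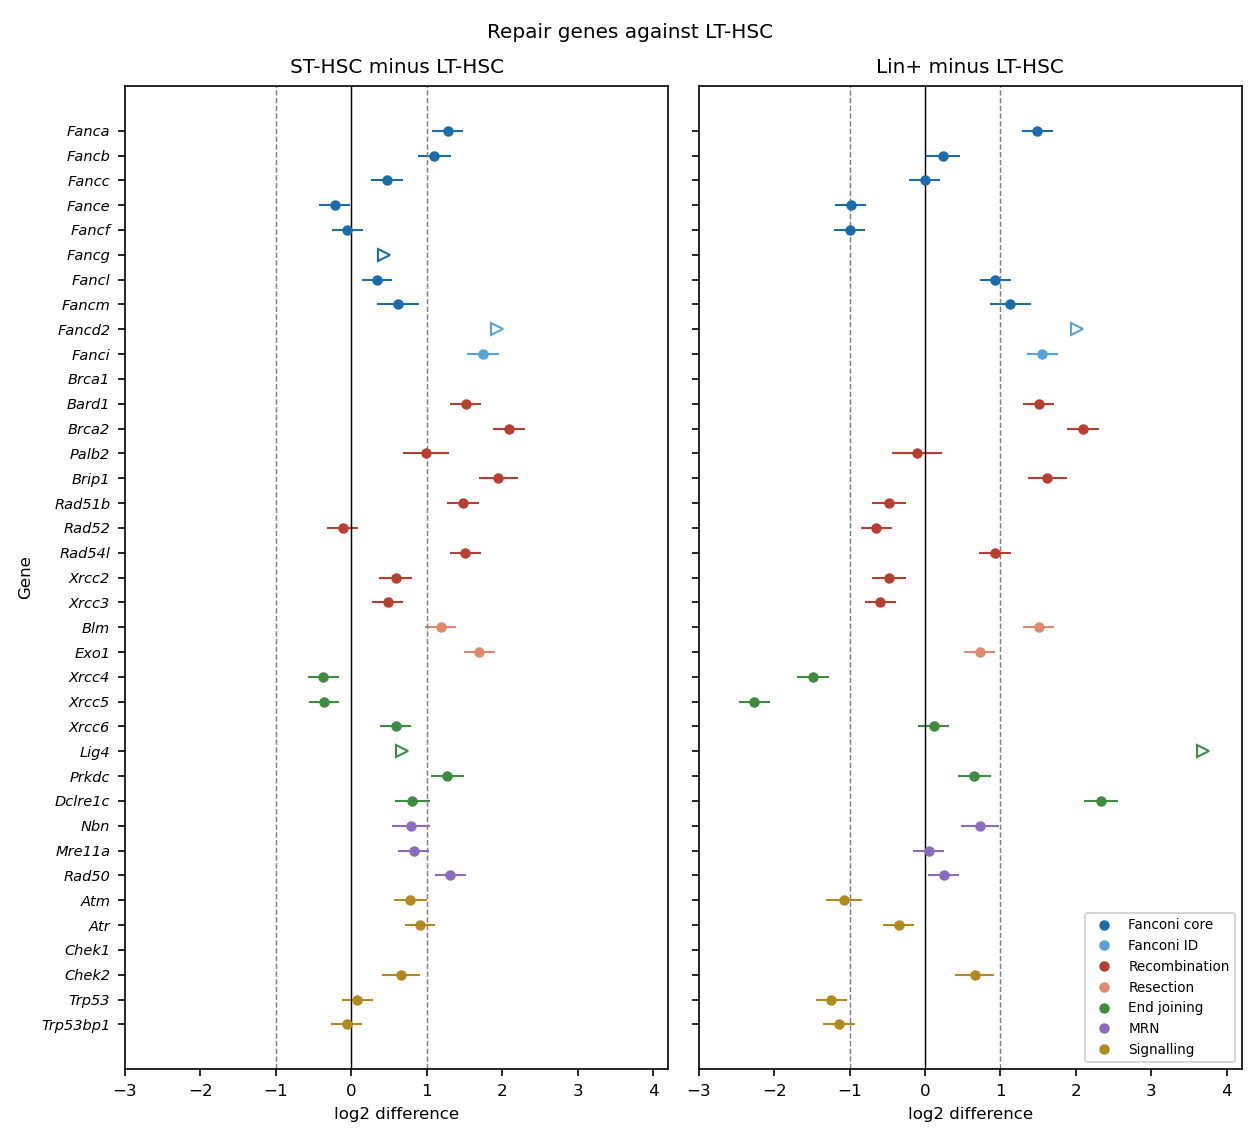
The panels plot the log2 difference of each repair gene in ST-HSC (left) and in Lin+ cells (right) from LT-HSC; bars are the spot error, open triangles are lower bounds for genes not well above background in LT-HSC, and dashed lines mark 2-fold. In the left panel 13 genes lie at or beyond 2-fold higher and none beyond 2-fold lower, while the right panel has 10 higher and 5 lower.

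The promoters of genes that were higher together in ST-HSC were read from the RefSeq promoter table of build GRCm38.p6, which held 32 of the 38 genes and 9 of the 13 called. The 250 bases before the start site were searched on both strands for E2F-type letters (TTCCCGC with its variant TTGGCGC, and the further forms TTGCCGC as well as TTCGCGC), for CCAAT, the core bound by NF-Y, and for TTTGAA, the letters of a cell cycle homology region (CHR). E2F factors and NF-Y are known regulators of genes of the dividing cell. The promoters of the 4 called genes with the largest differences measured on both arrays and an entry in the table are shown 5′ to 3′ on the strand of the gene, in lower case, with every match in capitals. They lie at chr5:150522371-150522620 (plus strand, Brca2), chr11:86201194-86201443 (minus strand, Brip1), chr7:79392088-79392337 (plus strand, Fanci) and chr1:71102973-71103222 (minus strand, Bard1).
Brca2: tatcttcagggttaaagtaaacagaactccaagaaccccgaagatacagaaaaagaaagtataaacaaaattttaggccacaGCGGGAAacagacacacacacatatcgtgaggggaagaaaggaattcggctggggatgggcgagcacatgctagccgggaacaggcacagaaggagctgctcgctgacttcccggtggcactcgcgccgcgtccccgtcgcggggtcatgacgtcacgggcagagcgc
Brip1: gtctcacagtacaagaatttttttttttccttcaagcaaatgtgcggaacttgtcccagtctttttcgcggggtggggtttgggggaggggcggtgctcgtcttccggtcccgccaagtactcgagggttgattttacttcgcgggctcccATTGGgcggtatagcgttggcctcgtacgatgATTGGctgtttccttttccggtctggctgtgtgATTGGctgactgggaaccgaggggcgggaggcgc
Fanci: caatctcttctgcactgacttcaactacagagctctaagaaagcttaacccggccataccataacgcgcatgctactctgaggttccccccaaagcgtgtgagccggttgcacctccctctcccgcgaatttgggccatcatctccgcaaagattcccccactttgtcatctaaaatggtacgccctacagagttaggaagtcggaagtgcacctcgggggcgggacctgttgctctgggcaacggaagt
Bard1: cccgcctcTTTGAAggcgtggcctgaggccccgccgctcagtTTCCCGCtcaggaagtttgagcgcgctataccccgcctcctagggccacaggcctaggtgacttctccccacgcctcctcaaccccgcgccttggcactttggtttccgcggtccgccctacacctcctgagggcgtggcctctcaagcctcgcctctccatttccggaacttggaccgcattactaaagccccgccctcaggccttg

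The Brca2 window held 1 match, the E2F-type GCGGGAA that starts 168 bases before the start site. Brip1 held ATTGG, the reverse complement of CCAAT, 3 times, from 99, 67 and 34 bases before the start. The Bard1 window held TTTGAA from base 242 and the E2F-type TTCCCGC from base 208 before the start, and the Fanci window held none of the letters. E2F-type letters occurred in 12 of 32 repair gene promoters (37.5%), in 7.97% of all 27025 promoters and in 13.2% of the 11001 whose gene was well above background somewhere. CCAAT occurred in 18 of 32 (56.2%), against 34.5% and 36.4%, and TTTGAA in 1 of 32 (3.12%), against 16.3% and 11.3%. Within the repair genes, E2F-type letters were in 4 of 9 promoters of genes called higher in ST-HSC and in 8 of the other 23. In 1 promoter, that of Fancf, an E2F-type and a CCAAT match overlapped. A match is a run of letters and not a measured binding site.

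Among Fanconi genes, the ubiquitinated pair and Fanca were called higher than in LT-HSC in both ST-HSC and Lin+ cells. Fanci gave 0.24 in LT-HSC and 1.99, 1.60 and 1.80 in the later fractions, and was higher in ST-HSC than in LT-HSC by 1.74 ± 0.21. The other 3 fractions lay within 0.39 of each other. Fancd2 was not well above background in LT-HSC, at 16.1 ± 6.94 intensity units, and gave -1.004, -0.96 and -0.92 in the later fractions. It was at least 3.83-fold higher in ST-HSC and at least 4.05-fold higher in Lin+ cells than in LT-HSC. Both of these Fancd2 calls were lost with normexp. The Fancd2 and Fanci proteins both have to be present for the clamp that they form on DNA.

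Members of the core complex did not follow 1 pattern. Fanca, the gene most often mutated in Fanconi anaemia, gave 1.15, 2.43, 3.47 and 2.64 from LT-HSC to Lin+ cells and was called higher in ST-HSC than in LT-HSC (1.28 ± 0.21) and in progenitors than in ST-HSC (1.04 ± 0.20). The latter call was lost with the median gene at 0, on spike-in controls, with quantile normalization and with normexp. It was also lost with the 75th percentile over probes well above background on all arrays. Fancb, a scaffold protein of the complex, gave -0.61, 0.49, -0.25 and -0.38 and was highest in ST-HSC. Fance, which links the core complex to Fancd2, gave 4.52, 4.30, 5.31 and 3.54, and the adaptor gene Fancf gave 2.55, 2.50, 3.04 and 1.56. Both were highest in progenitors and lowest in Lin+ cells, with differences of Lin+ cells from progenitors of -1.77 ± 0.20 and -1.49 ± 0.20.

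Fancl, the ubiquitin ligase subunit, gave 2.08, 2.42, 2.72 and 3.01, and neighbouring fractions differed by 0.34 at most. Its 2 probes disagreed for Lin+ cells against progenitors, at 0.29 and -0.23. Fancm, a motor protein that brings the complex to DNA, was highest in Lin+ cells at -0.87, against -2.00, -1.39 and -1.78 in the earlier fractions, and was higher there than in LT-HSC by 1.13 ± 0.27. That call was lost with normexp. Fancg was dim, not well above background in LT-HSC and at -2.50, -2.07 and -2.96 later, and was called in no comparison. Fancc gave 0.12, 0.59, 0.88 and 0.11 by its brighter probe and was not called. Its second probe gave -2.43, -0.016 and -2.14 in the fractions after LT-HSC, a difference of 2.41 for progenitors against ST-HSC where the brighter probe gave 0.29.

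Among recombination genes, Brca2, Brip1, Bard1 and Rad54l were lowest in LT-HSC. Brca2, a breast cancer susceptibility gene that acts in recombination, gave -0.21, 1.87, 0.74 and 1.88 in that order of fractions. ST-HSC and Lin+ cells were level, each higher than LT-HSC by 2.09 ± 0.21, and progenitors differed from ST-HSC by -1.14 ± 0.21. Brip1, a helicase that binds Brca1, gave -2.05, -0.099, -0.051 and -0.43, with a difference of 1.95 ± 0.26 for ST-HSC against LT-HSC and no later step of 2-fold. Bard1, the partner of Brca1 in a ubiquitin ligase, gave 1.64, 3.15, 2.92 and 3.14, and its 3 probes differed by 0.63 to 1.54 for ST-HSC against LT-HSC, all in the same direction. Palb2, the bridge between Brca1 and Brca2, gave -2.38, -1.39, -1.48 and -2.48 and came to 0.99 ± 0.30 in ST-HSC against LT-HSC, just short of 2-fold.

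Rad54l, a motor protein of recombination, gave 0.69, 2.20, 2.64 and 1.62. Exo1, the nuclease that resects break ends, had the same order at 1.36, 3.06, 3.41 and 2.09. Both were higher in ST-HSC than in LT-HSC, by 1.51 ± 0.21 and 1.70 ± 0.21, and lower in Lin+ cells than in progenitors, with differences of -1.02 ± 0.20 and -1.32 ± 0.20. The latter calls were lost with the median gene at 0 and on spike-in controls. They were also lost with the 75th percentile over probes well above background on all arrays. That of Rad54l was lost with quantile normalization and normexp as well. Blm, the helicase mutated in Bloom syndrome, gave 0.41, 1.59, 1.34 and 1.91 and was lowest in LT-HSC, with no step of 2-fold after ST-HSC.

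Rad51b, Xrcc2, Xrcc3 and Rad52, which all assist recombination, had their lowest levels in Lin+ cells rather than in LT-HSC. Rad51b gave -0.62, 0.86, 0.095 and -1.10, and was higher in ST-HSC than in LT-HSC by 1.48 ± 0.22. Xrcc3 gave 1.61, 2.10, 2.49 and 1.02 and was lower in Lin+ cells than in progenitors, with a difference of -1.47 ± 0.20. Xrcc2 gave -0.68, -0.095, -0.23 and -1.16 and Rad52 gave 0.46, 0.34, 0.39 and -0.19, and neither was called in any comparison. The dimmer Xrcc2 probe gave 1.12 for ST-HSC against LT-HSC, past 2-fold, where the brighter probe gave 0.59. The 2 Xrcc2 probes differed in sign for Lin+ cells against LT-HSC, at -0.48 and 0.48, so the place of its lowest level is not settled.

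Compared with LT-HSC, end joining genes divided by partner in Lin+ cells. Lig4, the ligase of the pathway, was not well above background in LT-HSC, gave -2.27 in ST-HSC and -2.23 in progenitors, and reached 0.75 in Lin+ cells. It was higher there than in progenitors by 2.97 ± 0.32 and at least 12.9-fold higher than in LT-HSC. Dclre1c, which encodes the hairpin-opening nuclease Artemis, gave -1.39, -0.58, -0.87 and 0.95, and was higher in Lin+ cells than in progenitors by 1.81 ± 0.22. Its 3 probes measured on both of these arrays gave 0.78 to 1.81, all in the same direction.

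Xrcc4, which holds Lig4 at the break, gave 1.03, 0.66, -0.72 and -0.45, and was lower in Lin+ cells than in LT-HSC, with a difference of -1.48 ± 0.21. The step of 2-fold lay between ST-HSC and progenitors, at -1.38 ± 0.22. Against progenitors, Xrcc4 in Lin+ cells differed by 0.27 ± 0.22 and was not called. Xrcc5 and Xrcc6 encode Ku80 and Ku70, the ring that binds broken ends. Xrcc5 gave 2.12, 1.76, 1.54 and -0.14 and was lower in Lin+ cells than in LT-HSC, with a difference of -2.26 ± 0.21, whereas Xrcc6 stayed between 5.18 and 5.80 and was called in no comparison. Both genes were measured by 1 probe each. Prkdc, the kinase recruited by Ku, gave -0.82, 0.45, -0.85 and -0.17 and was highest in ST-HSC.

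**Figure D3:**
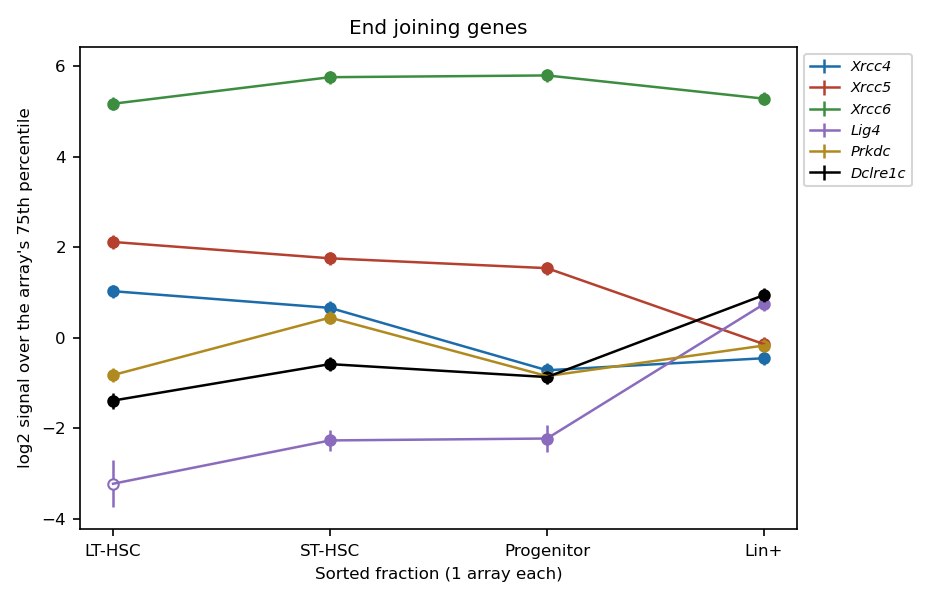
The log2 signal over the 75th percentile of each array is plotted for 6 end joining genes in the 4 fractions (1 array each); bars are the spot error of a value and the open circle marks a signal not well above background. Lig4 and Dclre1c reach their highest values in Lin+ cells at 0.75 and 0.95, where Xrcc5 has its lowest at -0.14.

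B cell markers differed in the same direction as Lig4 and Dclre1c. All 7 were well above background in Lin+ cells, and Rag1, which makes the breaks of V(D)J recombination, was at least 24.3-fold higher there than in progenitors. In LT-HSC, ST-HSC and progenitors 2, 2 and 3 of the 7 were well above background, and Cd79a, Rag1 and Ebf1 were not on any of those arrays. The summed signal of the list over the 75th percentile was 18.6, 19.95, 22.1 and 404 in the order of differentiation. Neutrophil and erythroid sums were higher in Lin+ cells as well, at 4623 and 4467 against 84.5 and 72.8 in progenitors. The part of any of these cells in the end joining differences was not tested.

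The break sensor of Nbn, Mre11a and Rad50 was higher in ST-HSC than in LT-HSC for each subunit, by 0.79 ± 0.25, 0.83 ± 0.20 and 1.31 ± 0.21, and Rad50 alone reached 2-fold. It did so by its brighter probe, while its dimmer probe gave 0.79. Rad50 gave 1.15, 2.46, 1.27 and 1.40, Mre11a gave 2.21, 3.04, 3.18 and 2.26, and Nbn gave -1.36, -0.57, -0.80 and -0.64. By its brighter probe Rad50 was thus high in ST-HSC only, with a difference of -1.19 ± 0.21 for progenitors, while its dimmer probe gave -0.25 there.

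The kinases that act above the checkpoint had their highest levels in ST-HSC. Atm, which responds to breaks, gave -0.96, -0.18, -1.91 and -2.04 and was lower in progenitors than in ST-HSC, with a difference of -1.73 ± 0.25. Its lower level in Lin+ cells than in LT-HSC, -1.07 ± 0.24, was -0.11 by its dimmer probe. That call was lost with the median gene at 0, on spike-in controls, with normexp and with the mean of probes. For ST-HSC against LT-HSC the dimmer Atm probe gave 1.13, past 2-fold, and the brighter probe 0.78. Atr, which responds to stalled replication, gave 1.49, 2.40, 1.38 and 1.15, and was lower in progenitors, with a difference of -1.03 ± 0.20. Chek2, the kinase below Atm, gave -1.78, -1.13, -1.35 and -1.13 and was called in no comparison.

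Chek1, the kinase below Atr, was well above background only in progenitors, at 113 ± 12.3 intensity units against 11.6 ± 6.73, 23.5 ± 5.79 and 24.5 ± 6.004 in LT-HSC, ST-HSC and Lin+ cells. It was at least 7.59-fold higher in progenitors than in ST-HSC and at least 7.71-fold higher than in Lin+ cells. The gene was measured by 1 probe with 1 spot per array, so the value rests on 1 spot. S phase genes also had their highest median above LT-HSC in progenitors, at 1.60, and their part in the Chek1 value was not tested.

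Trp53, which encodes the tumour suppressor p53, gave 0.94, 1.02, 1.65 and -0.30 and was lower in Lin+ cells than in progenitors and LT-HSC, with differences of -1.94 ± 0.21 and -1.24 ± 0.21. Trp53bp1, which steers breaks towards end joining, gave 1.72, 1.65, 0.74 and 0.58 and was lower in Lin+ cells than in LT-HSC, with a difference of -1.14 ± 0.21. The calls of both genes against LT-HSC were lost on spike-in controls and with normexp, and that of Trp53bp1 also with the median gene at 0 and with the mean of probes.

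Listed p53 target genes did not move as 1 group. For Lin+ cells against progenitors 4 of 16 were at least 2-fold higher and 3 lower, with a median of 0.21, beside 14.5% and 26.4% of all genes. Aen and Phlda3 differed by -2.39 ± 0.20 and -2.33 ± 0.22. Trp53inp1, Perp and the growth arrest gene Gadd45a differed by 4.32 ± 0.23, 2.73 ± 0.21 and 2.22 ± 0.20, and the death receptor gene Fas was at least 14.0-fold higher. For ST-HSC against LT-HSC 1 of 16 was higher (Pmaip1, 1.23 ± 0.21) and 2 were lower (Fas, -1.43 ± 0.26, and Zmat3, -1.01 ± 0.24), beside 5.81% and 9.00% of all genes.

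Progenitors were compared with ST-HSC, and by their labels both fractions were c-Kit-positive and lineage-negative. The ST-HSC label adds CD34+ and Sca1+, while the exact progenitor gate is uncertain. Brca2, Xrcc4, Prkdc, Rad50, Atm and Atr were lower in progenitors, and Fanca, Fance and Chek1 were higher. Of 36 repair genes, 3 were at least 2-fold higher against 10.0% of 12607 genes, and 6 were lower against 10.2%. The median over the repair genes was -0.11, beside 0.17 over all genes. Mature and progenitor cell markers were higher in progenitors, 6 of 6 erythroid (median 4.01), 4 of 4 megakaryocyte, 5 of 5 granulocyte-monocyte progenitor and 4 of 5 neutrophil genes, while 5 of 10 mitosis genes were lower. Their part in the repair gene differences was not tested. With the 75th percentile taken over probes well above background on all arrays, 1 was higher and 8 lower, with a median of -0.37. Of all genes, 6.31% were higher and 15.0% lower under that setting. With normexp 3 were lower against 5.75% of all genes, without Atm, Prkdc and Xrcc4. The mean of probes lost the Rad50 and Fance calls. Fanca and Fance lost their calls with the median gene at 0, on spike-in controls, with quantile normalization and with normexp. They also lost them with the 75th percentile over probes well above background on all arrays. Fance differed by 1.00 ± 0.20, and by 0.69 with its dimmer probe.

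In this comparison the differences also followed the genomic span of a gene. Over all genes ordered by span, the median was 0.42 for the shortest genes and -0.15 for the longest when they were cut into 5 groups of equal size. All 6 repair genes that were lower lay in the 2 groups of the longest genes, which held 25 of the 36 repair genes. In the longest group 4 of 13 repair genes were lower against 17.6% of all genes, and in the next 2 of 12 against 12.3%. Span came from another assembly than the build of the array and served only to order genes. The part of span in the repair gene differences was not tested.

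**Figure D4:**
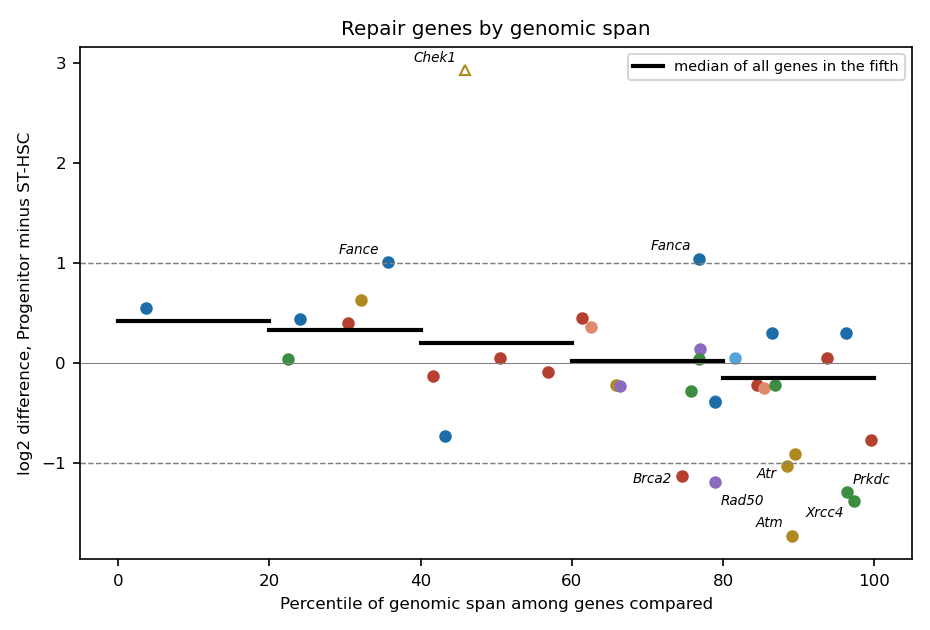
Each point is a repair gene, with its percentile of genomic span among the genes compared on the x axis and the log2 difference of progenitors from ST-HSC on the y axis; colours are the roles, the open triangle (Chek1) is a lower bound, black bars are medians of all genes in each of 5 groups by span and dashed lines mark 2-fold. The bars fall from 0.42 to -0.15, and the 6 genes below the lower dashed line are all among the long genes.

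Lin+ cells were compared with progenitors for the passage to mature cells. Lig4, Dclre1c and Brca2 were higher in Lin+ cells. Trp53, Chek1, Xrcc5, the core complex genes Fance and Fancf and the recombination genes Xrcc3, Exo1, Rad51b and Rad54l were lower. Of 36 repair genes 3 were at least 2-fold higher against 14.5% of 12981 genes, and 9 were lower against 26.4%, so both shares, 8.33% and 25.0%, were near or below those of all genes. The median over the repair genes was -0.30, beside -0.33 over all genes. Differences followed span here too, in the opposite sense, with a median over all genes of -0.56 for the shortest group and 0 for the longest. This comparison shares the progenitor array with that of progenitors and ST-HSC, so the opposite senses are not independent observations. Group medians moved little where that array was not used. They ranged from -0.013 to 0.055 when ST-HSC were set beside LT-HSC. With Lin+ cells set beside LT-HSC the range was -0.20 to -0.098. The cause of the span trend was not tested. Of the 9 repair genes lower in Lin+ cells than in progenitors, Fancf, Fance, Trp53 and Xrcc3 lay in the 2 groups of the shortest genes. In the shortest group 1 of 1 repair gene was lower against 34.0% of all genes, and in the next 3 of 5 against 32.6%. Chek1 lay in the middle group, 1 of 5 against 26.3%. Exo1 and Rad54l were 2 of 12 against 20.6% in the group after it. Xrcc5 and Rad51b were 2 of 13 against 18.4% in the longest. The median over the repair genes turned above 0 under 3 scalings, at 0.090 with the percentile over probes well above background on all arrays, 0.12 with the median gene at 0 and 0.30 on spike-in controls. With the median gene at 0, 5 repair genes were higher and 6 lower, with Exo1, Rad51b and Rad54l lost. Of all genes, 21.4% were higher and 14.1% lower under that setting.

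Lin+ cells were compared with LT-HSC to set both ends of the series against each other without the progenitor array. Fancd2, Fanci, Fanca, Fancm, Brca2, Bard1, Brip1, Blm, Lig4 and Dclre1c were higher in Lin+ cells, and Xrcc5, Xrcc4, Trp53, Trp53bp1 and Atm were lower. Of 35 repair genes 10 were at least 2-fold higher against 16.1% of 13276 genes, and 5 were lower against 23.2%. The median over the repair genes was 0.24, beside -0.15 over all genes. This comparison shares the LT-HSC array with that of ST-HSC, and a low value there raises both differences. With normexp background correction 7 were higher and 2 lower, against 12.3% and 16.3% of all genes. The calls lost were those of Fancd2, Fancm, Brip1, Atm, Trp53 and Trp53bp1.

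**Figure D5:**
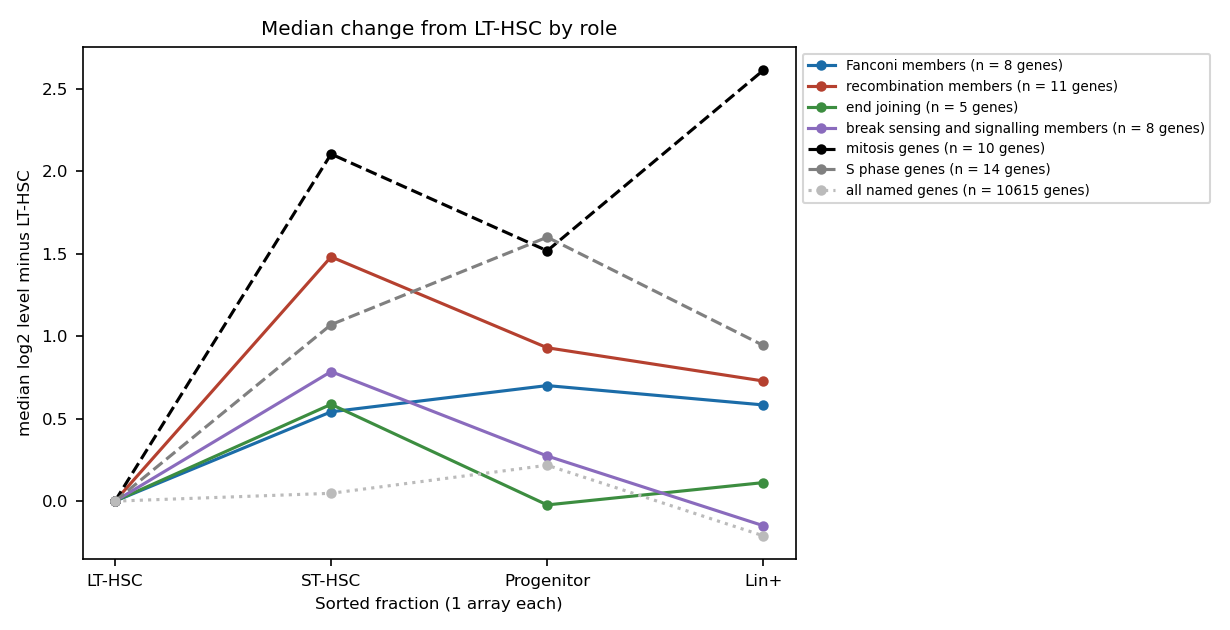
Lines give the median log2 level minus that in LT-HSC over the genes of a role that were well above background on all 4 arrays (1 array per fraction; no error is drawn because a median over genes is not replicated), with mitosis and S phase genes dashed and all named genes dotted. Recombination genes go from 1.48 in ST-HSC to 0.73 in Lin+ cells, and mitosis genes go from 2.10 to 2.61.

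Medians by role summarise the fractions under the main scaling. Another constant scaling shifts all lists of a fraction alike, so the order of fractions within a list depends on it. Over genes well above background on all arrays, the median above LT-HSC of 11 recombination genes was 1.48, 0.93 and 0.73 in ST-HSC, progenitors and Lin+ cells. For 8 Fanconi genes it was 0.54, 0.70 and 0.58, for 5 end joining genes 0.59, -0.023 and 0.11, and for 8 sensor and signalling genes 0.79, 0.27 and -0.15. Mitosis genes gave 2.10, 1.52 and 2.61 and S phase genes 1.07, 1.60 and 0.94. Over all genes the medians were 0.048, 0.22 and -0.21.

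Partner genes outside the 38 were measured in 4 lists of 54 genes. For ST-HSC against LT-HSC 16 of 54 were at least 2-fold higher and 1 lower, with a median of 0.60, beside 5.81% and 9.00% of all genes. Among recombination partners 6 of 17 were higher, with Rad54b at 2.64 ± 0.30, Rad51ap1 at 1.74 ± 0.20 and the resection gene Rbbp8 at 1.41 ± 0.20. Polq, the polymerase of alternative end joining, differed by 1.68 ± 0.25, and Gen1, a nuclease that cuts recombination junctions, was at least 3.67-fold higher. Among Fanconi partners 4 of 13 were higher, including the nuclease subunit gene Eme1 (1.55 ± 0.21) and Usp1, which removes ubiquitin from Fancd2 (1.17 ± 0.20). Among checkpoint partners 4 of 15 were higher, with H2afx, the histone phosphorylated at breaks, at 1.38 ± 0.20, Topbp1, an activator of Atr, at 1.21 ± 0.20, Timeless at 1.14 ± 0.20 and Clspn, the adaptor for Chek1, at least 4.12-fold.

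End joining partners differed among themselves. Polm, a polymerase of end joining, gave 0.51, -2.17, 1.22 and 3.20 and was lowest in ST-HSC and highest in Lin+ cells. Dntt, which adds untemplated bases in V(D)J recombination, gave 5.95, 7.58, 5.37 and 4.07 and was highest in ST-HSC. Aptx and Lig3 were lower in Lin+ cells than in LT-HSC, with differences of -2.12 ± 0.32 and -1.67 ± 0.21. Dntt was lower as well (-1.88 ± 0.20). For Lin+ cells against LT-HSC 2 of these 9 partners were higher and 3 lower, beside 16.1% and 23.2% of all genes.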

How the data were processed

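Per the labels' protocols, RNA was extracted with TRIZOL LS, cleaned on RNeasy columns and, after addition of spike-ins, amplified and labelled with Cy3. Spot values are deposited as linear intensity. Per the file headers, Agilent Feature Extraction (version 10.7.1.1 per the submitters' processing notes) subtracted background and corrected trends within each array only. The authors also deposited a value table in which each value is a ratio to a constant. It equalled the processed signal over 1 constant per array within 1% for 100% of 55246 probes (constants 191, 217, 137 and 230, column medians 0.0619, 0.0630, 0.0704 and 0.0738). This table served as an alternative.

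Control spots and outlier spots were left out, spots of a probe were averaged as log2, and the 75th percentile of each array was subtracted. From 40.9% to 45.9% of 55678 probes were well above background. The number of arrays limits the precision. Probes were named by accession through the RefSeq table of GRCm38.p6, which matched 26762 probes (48.1%), and the brightest probe stood for a gene. The array design uses build mm9, so no coordinates were taken for probes. For a dim signal, the lowest value well above background on its array was used unless the signal itself was higher, and such a difference is given as at least N-fold. Calls needed 2-fold, and no test across replicates was possible. Scripts were tested on simulated data. Members and lists were chosen with earlier results of these data known. All listed repair genes are named, and of other lists up to 6 called genes per comparison. The scanner files used have no mean spot signal, so normexp used the median spot signal. Its offset was 50 intensity units. Python 3.11.15, R 4.3.3 and limma 3.58.1 were used.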

Additional observations from a re-analysis of the deposited data

How the results depend on the processing

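The 12 counts and medians of the 4 comparisons were recomputed under 10 alternatives. For ST-HSC against LT-HSC, 13 of 35 genes higher became 24 at a 1.5-fold threshold, where 13.4% of all genes were higher. The median of 0.79 became 1.102 on spike-in controls and 0.50 with normexp. All 13 genes stayed called under the 3 other scalings, quantile normalization, the mean of probes and the value table. Spike-in controls added Atm, Atr, Dclre1c, Mre11a, Nbn and Palb2 for a count of 19, against 10.5% of all genes. Quantile normalization added Palb2. Under every alternative 0 repair genes were lower. For progenitors against ST-HSC, 3 of 36 genes higher became 1 with the percentile over detected probes, the median gene at 0, spike-in controls, quantile normalization and normexp. Of all genes, 4.01% to 7.42% were higher under these settings. The 6 lower became 11 on spike-in controls, against 25.2% of all genes, and 3 with normexp, against 5.75%. The median of -0.11 became -0.37 with detected probes and -0.74 on spike-in controls. For Lin+ cells against progenitors, 3 of 36 higher became 5 with detected probes, the median gene at 0 and the 1.5-fold threshold and 6 on spike-in controls. Of all genes, 20.8%, 21.4%, 21.3% and 25.7% were higher under these settings in that order. The 9 lower became 4 on spike-in controls, against 10.4% of all genes, and 15 at 1.5-fold, against 41.1%. The median of -0.30 turned to 0.090 with detected probes, 0.12 with the median gene at 0 and 0.30 on spike-in controls. For Lin+ cells against LT-HSC, 10 of 35 higher became 16 and 5 lower became 9 at 1.5-fold, against 23.9% and 35.0% of all genes. The 5 lower became 3 with the median gene at 0 or the mean of probes, against 18.6% and 21.8%. They became 2 on spike-in controls or with normexp, against 17.2% and 16.3%. The median of 0.24 became 0.45 with the median gene at 0, 0.53 on spike-in controls and 0.58 without background filter and floor. Scalings other than quantile normalization shift all genes of an array alike, and the cause of the other changes was not tested. Another scaling moved the share of higher calls among all called genes by over 10 percentage points: for ST-HSC against LT-HSC from 39.2% to 63.0% on spike-in controls, for progenitors against ST-HSC from 49.6% to 29.6% (detected probes), 33.1% (median gene), 13.7% (spike-in) and 38.9% (quantile), for Lin+ cells against progenitors from 35.5% to 58.6%, 60.2%, 71.2% and 45.6%, and for Lin+ cells against LT-HSC from 41.0% to 51.2% (median gene) and 55.3% (spike-in). On spike-in controls the median of all genes was 0.33, -0.44, 0.26 and 0.12 in the 4 comparisons. Of 142 differences of single genes, 0 that were called changed sign. Signal near background limits Fancg, Fancd2 and Lig4 in LT-HSC and Chek1 outside progenitors to bounds or no comparison, and leaves Brca1 not compared. No paired analysis was possible because each fraction has 1 array. Leaving out a replicate was not possible for the same reason.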
